A study of Mus musculus with 4 samples.

Results

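The set described here is 10 genes of extracellular matrix breakdown, chosen by their symbols: the matrix metalloproteinase genes Mmp2, Mmp11, Mmp14, Mmp15 and Mmp16, the protease gene Adamts1, and the inhibitor genes Timp1, Timp2, Timp3 and Reck. All 10 of 10 symbols matched 1 gene each among the 52636 gene identifiers counted, and all 10 are among the 18172 genes that passed the filter on low counts. Timp1 passed that filter through the control libraries. Mouse kidney cells were sorted by fluorescence, and 2 libraries were made from a control group and 2 from a Brg1-cKO group. The name Brg1-cKO usually stands for a conditional knockout of Brg1, the protein of Smarca4 and the motor subunit of SWI/SNF chromatin remodelers. The labels used here name no sorting marker, age, strain, sex, deleting Cre or control genotype, and they leave unsaid whether the 2 libraries of a group are separate animals, so the p-values cover the spread between libraries alone, and that spread may be technical.

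Matrix metalloproteinases are zinc enzymes that cut collagens, laminins, fibronectin and proteoglycans, and most are made as inactive proenzymes. The membrane-type enzymes, of which Mmp14, Mmp15 and Mmp16 each encode 1, sit at the cell surface. The product of Mmp14 binds the inhibitor encoded by Timp2, and this pair captures and activates the proenzyme of Mmp2, so Timp2 both inhibits and assists the system. In the developing kidney, matrix is remodelled around the branching ureteric bud, in the stroma and where the glomerular and tubular basement membranes form.

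The libraries differed in depth and in kind of reads. Gene counts were 35411905 and 37999342 in control and 14645665 and 10922272 in Brg1-cKO. Uniquely aligned reads that matched no counted feature made up 15.4% to 16.5% in control and 49.5% to 57.2% in Brg1-cKO. Variation between replicates beyond counting noise, as a coefficient, was 0.174 in control and 1.15 in Brg1-cKO. Xist, expressed from the inactive X chromosome, was at 217 to 244 CPM in control and at 836 to 1205 CPM in Brg1-cKO, and the Y-linked Ddx3y was at 76.0 to 78.8 CPM in control and at 1.048 to 3.270 CPM in Brg1-cKO, so sex and group cannot be told apart. Smarca4 was at 898 and 937 CPM in the controls and at 760 and 691 CPM in Brg1-cKO. CPM here are read counts scaled to a common library size with TMM factors.

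In the sorted cells, Mmp2, Mmp14, Adamts1 and Timp1 were below both controls in each Brg1-cKO library, Timp2 and Mmp16 were above them in each, and Mmp11, Mmp15, Timp3 and Reck had 1 Brg1-cKO library inside or on the other side of the control range. Mmp2 was 2.18-fold lower. At the adjusted threshold of 0.05 (edgeR's quasi-likelihood test), 0 of the 10 genes and 0 of 18172 genes in all (0%) passed. At an unadjusted p under 0.05, 2 of the 10 genes were lower and 0 higher, against 12.9% and 5.44% of all genes tested. Groups did not overlap, with Brg1-cKO lower, for 4 of the 10, against 34.5% of all genes. Timp1, among these 4, passed the filter on low counts through the control libraries. With Brg1-cKO higher, groups did not overlap for 2 of the 10, against 17.5%. These shares lie near the background. DESeq2 called 2 of the 10, both lower. It called lower 4.28% of the 18337 genes to which it gave an adjusted p. With limma-voom, which called 0.616% of all genes, and with a replicate block in edgeR, which called 0.858%, 0 of the 10 passed. Leaving out control replicate 1 (0.0818% of all genes called) or replicate 2 (0.0817%) gave 0 of the 10. With a single Brg1-cKO library, assumed to vary like the controls, 9 of the 10 passed without replicate 1, where 55.5% of all genes passed, and 7 without replicate 2, where 60.6% did. The median log2 fold change (Brg1-cKO minus control) was -0.21 over the 10 genes and -0.06 over all genes tested.

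**Figure D1:**
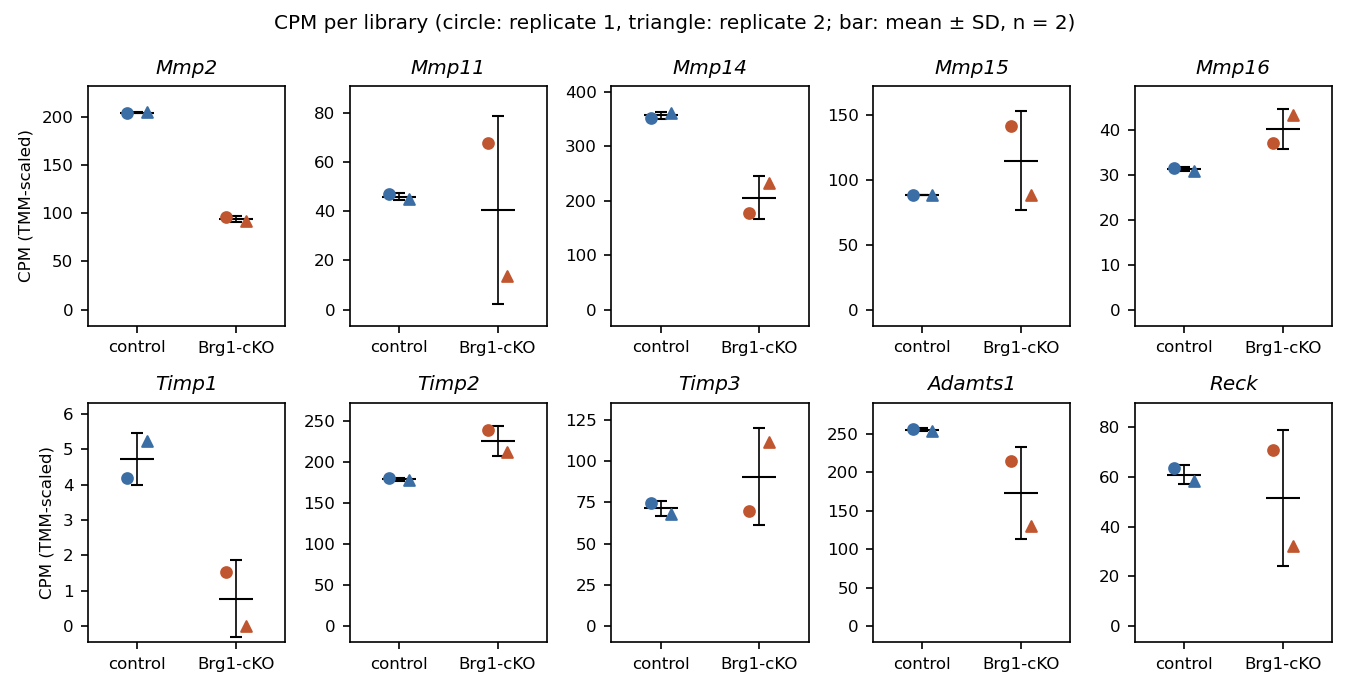
CPM (y axes, TMM-scaled, linear, each panel on its own scale) of the 10 genes in each library, with circles for replicate 1, triangles for replicate 2 and bars for the mean ± SD of 2 libraries. The control pair lies close together in nearly every panel, while the Brg1-cKO pair is close for Mmp2 (96.4 and 91.5 CPM) and wide apart for Mmp11 (67.6 and 13.6 CPM).

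Mmp2 encodes gelatinase A, a secreted enzyme that cuts denatured collagen and type IV collagen. It was at 204 and 205 CPM in control and at 96.4 and 91.5 CPM in Brg1-cKO. The groups lay far apart and both pairs were tight. The log2 fold change was -1.12 (SE 0.14), or 2.18-fold lower, with an adjusted p = 0.166 (unadjusted 0.00130) in edgeR's quasi-likelihood test. This adjusted p is the smallest of any gene, but many genes share it, among them Mmp14 (number 1014 by p) and Wnt7b (number 1989). By p Mmp2 was number 54 of 18172. DESeq2 called it lower (log2 fold change -1.07, adjusted p = 1.24e-10). It did not pass with limma-voom (adjusted p = 0.0798) or with the replicate block in edgeR (adjusted p = 0.0597). With each Brg1-cKO library taken alone against both controls the log2 fold change was -1.10 (replicate 1) and -1.19 (replicate 2). Mmp2 lies on chromosome 8 from 92827291 to 92853420, plus strand (mm10).

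In bulk samples, fewer cells of a type and less RNA per cell cannot be told apart. Of all 18172 genes tested, 8546 (47.0%) were higher in Brg1-cKO and 9626 lower, which is the background for the list counts given here and below. Beside Mmp2, 12 of 15 renal stroma genes were lower in Brg1-cKO and 3 higher, and their summed level was 3901 to 3961 CPM in control and 2438 to 2530 CPM in Brg1-cKO, with no member at 0 in both Brg1-cKO libraries. This sum rests mostly on the collagen genes Col1a1, Col3a1 and Col1a2, of which Col1a2 was higher in Brg1-cKO. The median log2 fold change of the stroma list was -1.06. Of 11 endothelial genes, 10 were lower and 1 higher, at 784 to 801 CPM summed in control and 416 to 517 CPM in Brg1-cKO. Of 10 tested ureteric bud genes, 9 were lower and 1 higher (median log2 fold change -1.87), with sums of 308 to 315 CPM in control and 107 to 179 CPM in Brg1-cKO and with Calb1, Wnt9b and Wnt7b at 0 in both Brg1-cKO libraries. The part of these cell types in the lower values of Mmp2 and Mmp14 was not tested.

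Mmp14 encodes the membrane-type enzyme MT1-MMP, a collagenase of the cell surface and the activator of the Mmp2 proenzyme. It was at 352 and 361 CPM in control and at 177 and 233 CPM in Brg1-cKO. Both Brg1-cKO libraries were below both controls, with replicate 2 nearer to them. The log2 fold change was -0.80 (SE 0.18), or 1.74-fold lower, with an adjusted p = 0.166 (unadjusted 0.0111) in edgeR's quasi-likelihood test. DESeq2 called it lower (log2 fold change -0.74, adjusted p = 0.00838). It did not pass with limma-voom (adjusted p = 0.103) or with the replicate block in edgeR (adjusted p = 0.0848). Mmp14 lies on chromosome 14 from 54431612 to 54445364, plus strand (mm10).

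Mmp14, Adamts1 and Timp1 are the 3 genes with a promoter window in RefSeq (GRCm38.p6) whose Brg1-cKO libraries both lay under the control range, and their windows are shown for that reason. Windows were found for 8 of the 10 genes, Mmp2 and Mmp16 not among them. Each is the 250 bases before the RefSeq start, written along the gene. Capitals mark matches, on both strands, to the EGR letters GCGGGGGCG or GCGTGGGCG, the AP-1 letters TGANTCA and the Sp/KLF letters GGGCGG, and to TATAAA on the gene's strand only. EGR and Sp/KLF matches can overlap each other.
Mmp14, chr14:54431348-54431597, plus strand: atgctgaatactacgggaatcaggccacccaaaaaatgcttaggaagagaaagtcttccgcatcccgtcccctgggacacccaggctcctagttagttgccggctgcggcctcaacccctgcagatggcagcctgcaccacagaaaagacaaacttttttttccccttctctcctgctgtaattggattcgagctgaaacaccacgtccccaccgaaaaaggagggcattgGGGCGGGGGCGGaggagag
Adamts1, chr16:85803114-85803363, minus strand: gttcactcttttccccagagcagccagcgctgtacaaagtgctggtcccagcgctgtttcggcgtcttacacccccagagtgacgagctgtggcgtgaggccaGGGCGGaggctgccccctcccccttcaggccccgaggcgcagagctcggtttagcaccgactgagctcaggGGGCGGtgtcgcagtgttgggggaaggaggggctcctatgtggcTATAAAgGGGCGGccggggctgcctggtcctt
Timp1, chrX:20869916-20870165, plus strand: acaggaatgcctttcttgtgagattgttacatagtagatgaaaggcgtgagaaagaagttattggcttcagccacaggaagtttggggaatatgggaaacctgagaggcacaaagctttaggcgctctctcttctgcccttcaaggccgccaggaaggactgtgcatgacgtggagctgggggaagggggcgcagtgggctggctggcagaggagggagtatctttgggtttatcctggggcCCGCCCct
The Mmp14 window holds 1 EGR match, 17 to 9 bases before the start, inside a run with 2 Sp/KLF matches that overlap it. Among all 32851 RefSeq windows of this length 3.06% hold an EGR match and 32.7% an Sp/KLF match. Mmp11, whose Brg1-cKO libraries lay on either side of control, is the other member with an EGR match. Egr1, the zinc finger factor that binds such letters, was at 2148 and 2104 CPM in control and at 1016 and 1095 CPM in Brg1-cKO. The Adamts1 window has 3 Sp/KLF matches and a TATAAA that begins 32 bases before the start, which 7.59% of windows hold, and the Timp1 window has 1 Sp/KLF match. The AP-1 letters, in 6.75% of all windows, are in none of the 8. These matches describe letters only and no binding was measured.

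Mmp15 and Mmp16 encode the membrane-type enzymes MT2-MMP and MT3-MMP. Mmp15 was at 88.0 and 88.2 CPM in control and at 142 and 88.0 CPM in Brg1-cKO. Replicate 2 of Brg1-cKO was thus at the control level and replicate 1 above it, and the log2 fold change was 0.38 (SE 0.29, adjusted p = 0.614 in edgeR's quasi-likelihood test). Mmp16 was at 31.6 and 31.0 CPM in control and at 37.1 and 43.3 CPM in Brg1-cKO. Both Brg1-cKO libraries were above control, yet the log2 fold change of 0.36 (SE 0.29) had an adjusted p of 0.632 in the same test. Neither gene shared the lower level of Mmp14 in both libraries. The ratio of Mmp15 to Mmp14, per kilobase of exon, was 0.276 and 0.270 in control and 0.882 and 0.417 in Brg1-cKO. An exact two-sided permutation test on this ratio gave p = 0.333, the lowest that 2 against 2 libraries allow. Mmp16 was not tested against either gene. Mmp15 lies on chromosome 8 from 95352268 to 95375080 and Mmp16 on chromosome 4 from 17852893 to 18119145, both on the plus strand (mm10).

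Mmp11 encodes stromelysin-3, which furin-type convertases activate inside the cell before it is secreted. It was at 46.9 and 44.9 CPM in control and at 67.6 and 13.6 CPM in Brg1-cKO, from 967 and 146 counts. The 2 Brg1-cKO libraries were 4.95-fold apart and lay on both sides of control, where the pair was 1.04-fold apart. The log2 fold change was -0.18 (SE 0.82, adjusted p = 0.945 in edgeR's quasi-likelihood test). Over the 10274 tested genes at a mean of 10 CPM or more, the median ratio of the higher to the lower library was 1.60 in Brg1-cKO (quartiles 1.23 and 2.55) and 1.07 in control, so the Mmp11 gap lay above the upper quartile. Mmp11 lies on chromosome 10 from 75923222 to 75936496, minus strand (mm10), and 155 bp of its exons (5.58%) overlap the antisense gene Chchd10. Whether reads were counted by strand is not given in the sources used here, so reads in that stretch may have been given to neither gene.

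Adamts1 encodes a secreted protease with thrombospondin repeats that cuts the proteoglycans aggrecan and versican. It was at 257 and 254 CPM in control and at 215 and 131 CPM in Brg1-cKO. Both Brg1-cKO libraries were below both controls, but by unlike amounts, and they were 1.64-fold apart. The log2 fold change was -0.56 (SE 0.28, adjusted p = 0.422 in edgeR's quasi-likelihood test). Its substrate gene Vcan was at 1415 and 1369 CPM in control and at 1124 and 1391 CPM in Brg1-cKO, where the groups overlapped. Adamts1 lies on chromosome 16 from 85793827 to 85803113, minus strand (mm10).

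**Figure D2:**
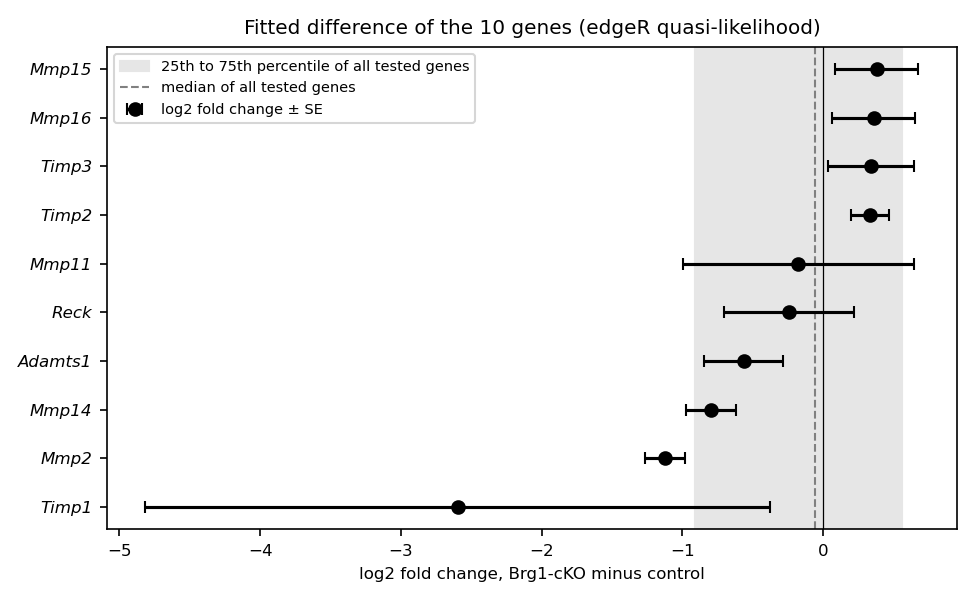
Log2 fold change (x axis, Brg1-cKO minus control) of the 10 genes with its standard error from edgeR's fit, against the interquartile range of all tested genes (grey, -0.91 to 0.56) and their median (dashed, -0.06). Mmp2 at -1.12 and Timp1 at -2.60 lie outside the grey band, and the Timp1 bar is wide (SE 2.22).

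Among the inhibitors, Timp2 had the tightest values. Its product binds Mmp14 and inhibits most matrix metalloproteinases. It was at 180 and 177 CPM in control and at 238 and 212 CPM in Brg1-cKO. Both Brg1-cKO libraries were above both controls, with a log2 fold change of 0.34 (SE 0.14), or 1.26-fold, and an adjusted p = 0.319 (unadjusted 0.0672) in edgeR's quasi-likelihood test. DESeq2 gave an adjusted p of 0.0864. Timp2 lies on chromosome 11 from 118301069 to 118355740, minus strand (mm10), and its span, but none of its exons, overlaps Cep295nl on the same strand.

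Timp3 encodes the inhibitor that stays bound to the matrix and also blocks several ADAM and ADAMTS proteases. It was at 74.6 and 68.1 CPM in control and at 69.7 and 112 CPM in Brg1-cKO. Replicate 1 of Brg1-cKO lay within the control range and replicate 2 above it, and the log2 fold change was 0.34 (SE 0.31, adjusted p = 0.664 in edgeR's quasi-likelihood test). Timp3 lies on chromosome 10 from 86300372 to 86349506, plus strand (mm10), inside the span of the antisense gene Syn3. The exons of the pair share 1733 bp, 21.3% of the Timp3 exon length, so reads there may have been given to neither gene if the counting ignored strand.

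Timp1 encodes a secreted inhibitor that acts poorly on membrane-type enzymes. It had 150 and 202 counts in control (4.19 and 5.24 CPM) and 22 and 0 counts in Brg1-cKO (1.54 and 0 CPM). The count of 0 allows up to 3 counts, or 0.280 CPM, so both Brg1-cKO libraries were below control. The log2 fold change was -2.60 (SE 2.22, adjusted p = 0.652 in edgeR's quasi-likelihood test). Timp1 lies on the X chromosome from 20870166 to 20874735, plus strand (mm10), inside the span of the antisense gene Syn1 with no shared exon. The 626 X-linked genes tested had a median log2 fold change of -0.16, and Xist and Ddx3y, given above, moved with the group. Of 12 immune cell genes 11 were lower in Brg1-cKO and 1 higher, with sums of 185 to 188 CPM in control and 65.5 to 85.3 CPM in Brg1-cKO and C1qa at 0 in both Brg1-cKO libraries. The part of sex or immune cells in the Timp1 difference was not tested.

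Reck encodes an inhibitor anchored at the cell surface that restrains the enzymes of Mmp2 and Mmp14 and is a receptor part for Wnt7 ligands. It was at 63.6 and 58.4 CPM in control and at 71.0 and 32.1 CPM in Brg1-cKO. The Brg1-cKO libraries lay on both sides of control, 2.21-fold apart, and the log2 fold change was -0.24 (SE 0.46, adjusted p = 0.854 in edgeR's quasi-likelihood test). Reck lies on chromosome 4 from 43875530 to 43944806, plus strand (mm10).

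**Figure D3:**
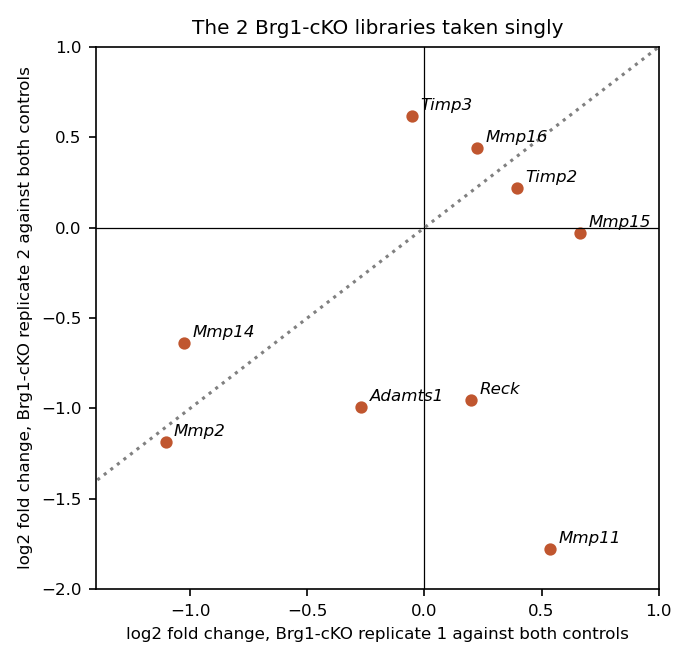
Log2 fold change of each Brg1-cKO library alone against both controls, replicate 1 on the x axis and replicate 2 on the y axis, for 9 genes (Timp1, at 0 counts in replicate 2, is left out), with equality dotted. Mmp2 and Mmp14 are negative in both and Timp2 and Mmp16 positive in both, while Mmp11 and Reck are positive in replicate 1 and negative in replicate 2.

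Taken singly, the Brg1-cKO libraries gave opposite signs for 4 of the 10 genes. Mmp11 had a log2 fold change of 0.54 with replicate 1 alone and -1.78 with replicate 2 alone. The same pair of values was 0.20 and -0.95 for Reck, 0.66 and -0.03 for Mmp15, and -0.05 and 0.62 for Timp3. For Mmp14 the values were -1.03 and -0.64, for Adamts1 -0.27 and -0.99, for Timp2 0.40 and 0.22, and for Mmp16 0.23 and 0.44. A lone library is assumed to vary like the controls, so edgeR's quasi-likelihood test then called 7 of the 10 genes with replicate 1 alone (all but Mmp16, Reck and Timp3) and 9 with replicate 2 alone (all but Mmp15), where 60.6% and 55.5% of all genes tested were called. Timp1 had a log2 fold change of -1.63 with replicate 1 alone, and its 0 counts in replicate 2 put that library at least 16.8-fold below the control mean, against the 3 counts allowed. Of all settings in which both Brg1-cKO libraries and both controls entered, 0 reversed the sign of any of the 10 genes.

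Levels of different genes were compared per kilobase of exon. In control the order was Mmp2 (60.7 ± 0.207 CPM per kb, SD, n = 2), Mmp14 (59.8 ± 1.13), Adamts1 (48.2 ± 0.336), Timp2 (45.8 ± 0.512), Mmp11 (16.5 ± 0.506), Mmp15 (16.3 ± 0.0271), Reck (12.8 ± 0.771), Timp3 (8.77 ± 0.567), Timp1 (5.31 ± 0.833) and Mmp16 (3.61 ± 0.0530). The neighbours Mmp2 and Mmp14, and likewise Mmp11 and Mmp15, had overlapping control values. In Brg1-cKO the level per kilobase of Timp2 (57.8 ± 4.78 CPM per kb) was above those of Mmp14 (34.4 ± 6.61), Adamts1 (32.6 ± 11.2) and Mmp2 (27.9 ± 1.03) in both libraries. Mmp2 was below Mmp14 in both, and the Adamts1 values spanned those of Mmp2 and reached above those of Mmp14. Mmp15 (21.3 ± 7.03), Mmp11 (14.6 ± 13.7), Timp3 (11.1 ± 3.64), Reck (10.8 ± 5.75) and Mmp16 (4.64 ± 0.509) followed, and the neighbours from Mmp15 to Reck overlapped. Timp2 thus stood at number 4 among the 10 genes in control and at number 1 in Brg1-cKO. The level of Timp1 per kilobase was the lowest in Brg1-cKO, at 0.866 ± 1.22 CPM per kb.

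**Figure D4:**
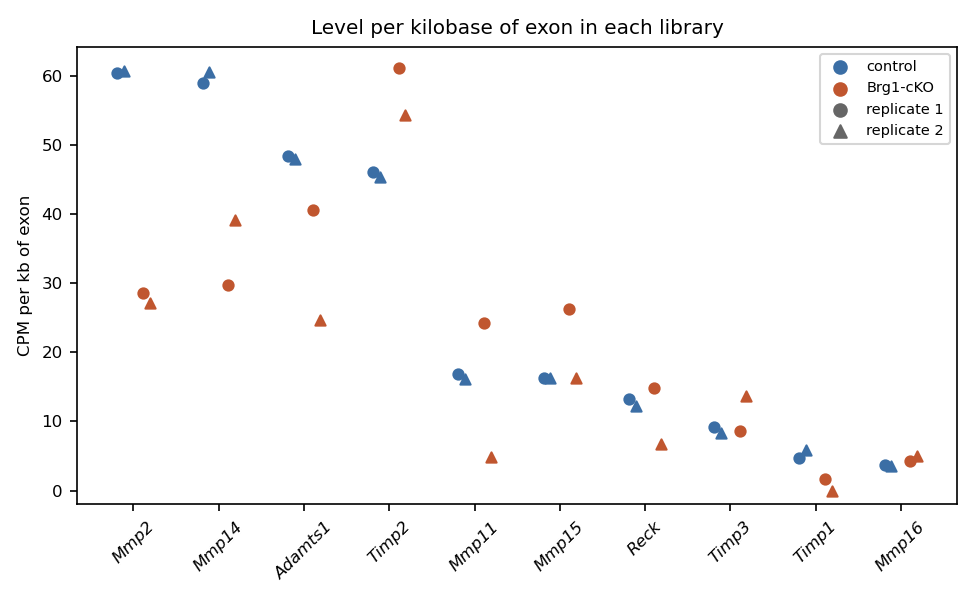
CPM per kilobase of exon (y axis, linear) of each gene in each library, ordered by the control mean, with blue for control, orange for Brg1-cKO, circles for replicate 1 and triangles for replicate 2. Both Brg1-cKO points of Timp2 (61.2 and 54.4) lie above those of Mmp2 (28.6 and 27.2) and Mmp14 (29.8 and 39.1), the reverse of control.

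Ratios within a library do not depend on how libraries are scaled. The ratio of Timp2 to Mmp2, per kilobase, was 0.763 and 0.748 in control and 2.14 and 2.004 in Brg1-cKO, and that of Timp2 to Mmp14 was 0.783 and 0.750 in control and 2.06 and 1.39 in Brg1-cKO. Both ratios were higher in each Brg1-cKO library than in either control, by 2.74-fold and 2.25-fold between the means. The ratio of Mmp2 to Mmp14 was 1.03 and 1.003 in control and 0.961 and 0.694 in Brg1-cKO. The ratio of Timp2 to Timp3 was 5.04 and 5.44 in control and 7.15 and 3.97 in Brg1-cKO, and the groups overlapped. These ratios, and that of Mmp15 to Mmp14 given above, were chosen after the values were seen. An exact two-sided permutation test of 2 against 2 libraries cannot go below p = 0.333. The ratios of Timp2 to Mmp2, Timp2 to Mmp14 and Mmp2 to Mmp14 each gave that value, and that of Timp2 to Timp3 did not.

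Other genes of matrix breakdown were read from lists of 93 protease and inhibitor genes, of which 75 were tested. Of these 28 were higher in Brg1-cKO and 47 lower, with a median log2 fold change of -0.35. At an unadjusted p under 0.05 there were 4 higher and 16 lower, against 5.44% and 12.9% of all genes, and 0 passed the adjusted threshold. Groups did not overlap for 12 higher and 35 lower genes, against 17.5% and 34.5% of all genes. Some of the lower genes were scarce in control and at 0 in both Brg1-cKO libraries, among them Timp4 (2.38 and 0.493 CPM in control), Mmp25 and Mmp28.

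Most secreted metalloproteinases were scarce: of 13 listed beyond the 10 genes, 4 were tested. Mmp23, kept in this list though it encodes a small transmembrane-anchored enzyme shed on activation, was its most abundant member. It was at 11.2 and 11.4 CPM in control and at 58.6 and 65.6 CPM in Brg1-cKO. Its groups lay far apart (log2 fold change 2.46, SE 0.30, adjusted p = 0.166 in edgeR's quasi-likelihood test). Mmp3 was at 0 in 3 libraries and at 26.2 CPM in Brg1-cKO replicate 2, and Mmp9 was at 3.49 and 4.77 CPM in control and at 11.2 and 0.841 CPM in Brg1-cKO. Mmp17, a further membrane-type gene, was at 8.66 and 7.88 CPM in control and at 0 and 44.7 CPM in Brg1-cKO.

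Of 17 other ADAMTS genes tested, 7 were higher and 10 lower. Adamts9, a versican-cutting protease, was the most abundant, at 219 and 220 CPM in control and at 266 and 305 CPM in Brg1-cKO (log2 fold change 0.38, SE 0.13). It lay on the other side of control from Adamts1. Adamts10 was at 99.9 and 99.7 CPM in control and at 153 and 66.9 CPM in Brg1-cKO, and Adamts7 at 49.97 and 57.4 against 27.7 and 31.9 CPM. In the list of 5 tested ADAMTS-like genes, 0 were higher, and Adamtsl1, the most abundant, was at 19.9 and 21.004 CPM in control and at 0 and 15.04 CPM in Brg1-cKO. Adamtsl4 was at 10.2 and 6.56 CPM in control and at 14.9 and 0 CPM in Brg1-cKO, on both sides of control, and Papln was at 3.07 and 3.86 CPM in control and at 1.26 and 0.374 CPM in Brg1-cKO.

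In the plasminogen system 4 genes were higher and 5 lower. Plat, which encodes tissue plasminogen activator, was at 116 and 113 CPM in control and at 283 and 178 CPM in Brg1-cKO (log2 fold change 1.01, SE 0.27), above control in both. Serpine2, an inhibitor of plasminogen activators, was at 54.0 and 45.7 CPM in control and at 22.6 and 46.4 CPM in Brg1-cKO, and the groups overlapped, as they did for the membrane serine protease gene St14 (14.9 and 17.1 against 8.46 and 22.0 CPM). In the astacin list 4 of 5 tested genes were lower, led in abundance by Bmp1, the procollagen C-proteinase, at 147 and 159 CPM in control and 104 and 99.0 CPM in Brg1-cKO. Its enhancer gene Pcolce was at 38.3 and 43.6 CPM in control and at 29.4 and 17.2 CPM in Brg1-cKO, while Pcolce2 differed between the Brg1-cKO libraries, at 24.6 and 0.747 CPM. Furin, a convertase that activates membrane-type enzymes and Mmp11, was at 111 and 113 CPM in control and at 96.6 and 106 CPM in Brg1-cKO, with a log2 fold change of -0.15 (SE 0.17). Of the other convertase genes, Pcsk5 overlapped control (66.7 and 72.4 against 96.2 and 53.5 CPM) and Pcsk6 was above it, far more so in replicate 2 (20.2 and 19.1 against 21.8 and 71.4 CPM).

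Of 8 membrane ADAM genes tested 3 were higher and 5 lower. Adam10, the most abundant, was at 215 and 209 CPM in control and at 187 and 227 CPM in Brg1-cKO, on both sides of control. Adam17, which sheds growth factors and is a target of Timp3, was at 80.5 and 81.8 CPM in control and at 74.0 and 53.3 CPM in Brg1-cKO. Adam19 was at 86.4 and 95.6 CPM in control and at 24.5 and 36.1 CPM in Brg1-cKO, below control in both (log2 fold change -1.59, SE 0.30). Of 9 cathepsin and cystatin genes 2 were higher and 7 lower, and Cst3, which encodes the cathepsin inhibitor cystatin C, had a log2 fold change of -1.003 (SE 0.25). Ctsb was below control in both Brg1-cKO libraries (162 and 160.4 against 128 and 66.7 CPM), and Ctsl lay on both sides of it (156 and 159 against 282 and 125 CPM). Among 11 regulators of these enzymes 4 were higher and 7 lower. Lrp1, an endocytic receptor that clears proteases bound to inhibitors, was at 481 and 484 CPM in control and at 282 and 314 CPM in Brg1-cKO (log2 fold change -0.70, SE 0.11). The matricellular gene Sparc, the most abundant of the list, was at 530.5 and 546 CPM in control and at 440.4 and 495 CPM in Brg1-cKO, and Spock2 was above control in both (423 and 447 against 546 and 489.6 CPM).

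Of 16 tested matrix genes that these enzymes cut, 3 were higher and 13 lower. The basement membrane collagen gene Col4a1 was at 1600 and 1567 CPM in control and at 1589 and 1447 CPM in Brg1-cKO, where the groups overlapped. The laminin gene Lamc1 was at 900.3 and 919 CPM in control and at 1127 and 1258 CPM in Brg1-cKO (log2 fold change 0.39, SE 0.09), in the same direction as Timp2. Podocyte markers also stood higher, all 12 of 12, with sums of 1695 to 1706 CPM in control and 4451 to 4719 CPM in Brg1-cKO and none at 0. Of 10 early nephron genes, 7 were higher and 3 lower in Brg1-cKO. Their sums were 1467 to 1471 CPM in control and 2354 to 2460 CPM in Brg1-cKO. Nephron progenitor genes were 6 higher and 4 lower, with sums of 1853 to 1878 CPM in control and 1995 to 2057 CPM in Brg1-cKO. The part of these cell types in the higher values of Timp2, Mmp16 and Lamc1 was not tested.

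**Figure D5:**
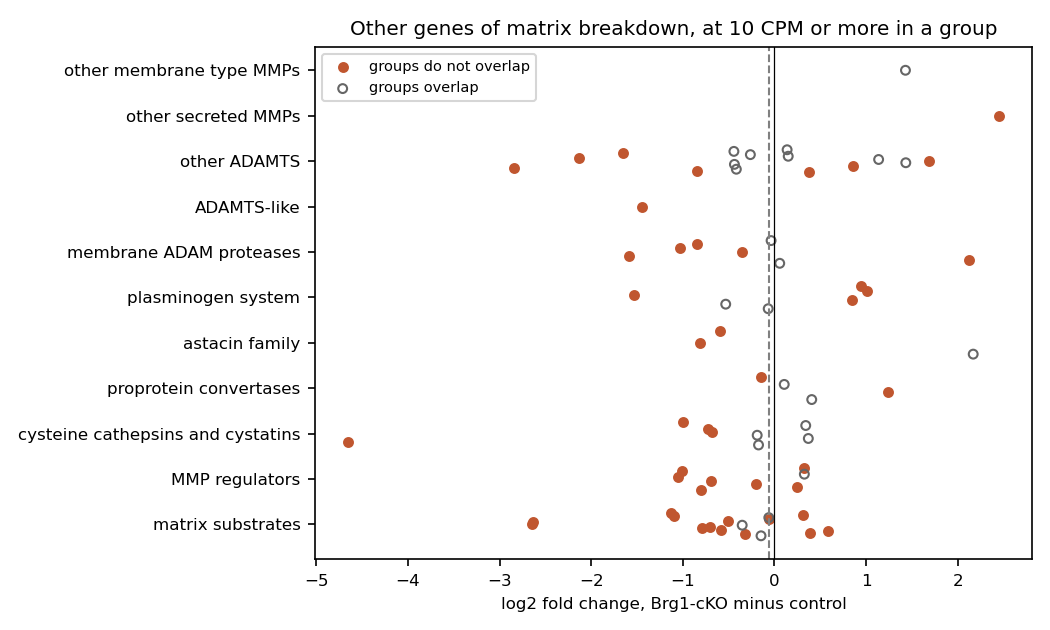
Log2 fold change (x axis, Brg1-cKO minus control) of the 70 tested list genes at a group mean of 10 CPM or more, by list (y axis), with filled points where the groups do not overlap and the median of all genes (-0.06) dashed. Mmp23, the single gene plotted from the list of other secreted metalloproteinases though its enzyme is anchored before shedding, lies at 2.46.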

How the data were processed

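The authors deposited counts of reads per gene for 4 libraries, as whole numbers. Reads that the files assign to no gene, 31.8% to 72.1% of the total per library, were not used in library sizes or tests. Per the labels' protocols, RNA of 3000 cells per sample was made into strand-specific libraries by random priming and read as single 75 bp reads. The submitters' processing notes name TopHat, DESeq2 and mm10. How reads were counted, with which strand setting and on which annotation, is not given in the sources used here. Symbols, positions and exon lengths came from GENCODE mouse release M21 on the same build, with 52403 of 52636 identifiers matched to a symbol.

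The groups were compared with edgeR 4.0.16 in R 4.3.3 (TMM, default expression filter with a minimum count of 10, robust dispersions, quasi-likelihood F test, Benjamini-Hochberg over all 18172 genes tested, group as the only term). Standard errors are the log2 fold change over the root of F. CPM per kb divides CPM by the union of a gene's exons, isoforms pooled. Lists of related genes were named by their 3 most abundant members, and further ones were chosen after their values were seen. The 10 genes and the lists were chosen with earlier results of these data known. Alternatives were DESeq2 1.42.0, limma-voom (limma 3.58.1), other scalings, filters and library sizes, a stricter threshold of 0.01, a replicate block and each library left out. Functions were run on simulated counts with the same spread in all libraries, so the unequal spread of these groups was not covered. A count of 0 allows 3 counts, 0.0778 to 0.280 CPM by library, for counting error only, since reads carry no molecular identifiers. Replicates were not copies: their counts differed beyond sampling noise, with a mean chi-square per gene of 9.68 in control and 127 in Brg1-cKO.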

Additional observations from a re-analysis of the deposited data

Results flagged for a closer look

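Unique alignments outside every counted feature, which enter no comparison of genes, had a share of 53.4% ± 5.47 (SD, n = 2) among unique alignments of the Brg1-cKO libraries and of 15.9% ± 0.775 in control. They stand out as a signal outside the gene counts that was above the control level in both Brg1-cKO libraries. Their part in the levels of the 10 genes was not tested.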

How the results depend on the processing

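The number of genes past the adjusted threshold of 0.05, which was 0 with edgeR's quasi-likelihood test (3328 at an unadjusted p under 0.05), was 2038 with DESeq2, 112 with limma-voom and 156 with the replicate block, and 16 to 13262 with 1 library left out. Of the 10 genes, 2 passed with DESeq2 (Mmp2 and Mmp14), and 0 (without either control) to 9 with 1 library left out. With limma-voom and with the replicate block 0 of the 10 passed. The same-numbered libraries deviated from their group means with a correlation of -0.02 over genes, so the numbers do not show a pairing, and the 10 genes kept their direction under the block. With 1 library left out, 4 genes changed sign, in a range of -1.78 to 0.54 for Mmp11, -0.0303 to 0.66 for Mmp15, -0.95 to 0.20 for Reck and -0.0546 to 0.62 for Timp3, and the cause was not tested. Mmp2 ranged from -1.19 to -1.07 over all alternatives, Mmp14 from -1.03 to -0.64 and Timp2 from 0.22 to 0.40. Timp1, at -2.60, was at -4.55 with limma-voom, -4.22 with the replicate block and -1.63 without Brg1-cKO replicate 2, and -10.07 without replicate 1, which leaves 0 counts in Brg1-cKO, so that this value depends on the prior count. A filter of 10 CPM in 2 libraries left Timp1 untested. RLE scaling moved 5 of the 20 group means of CPM by more than 1 SD, and total counts 4. Depth limits Timp1, with 22 and 0 counts in Brg1-cKO.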

Other observations

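The level of Mmp2 kept a near constant ratio to the fibrillar collagen genes Col1a1 and Col3a1, chosen here after the values were seen. Col1a1 encodes a chain of type I collagen, and its CPM was 1047 and 1031 in control and 485 and 466 in Brg1-cKO. The ratio of Mmp2 to Col1a1 was 0.195 and 0.199 in control and 0.199 and 0.196 in Brg1-cKO, and that of Mmp2 to Col3a1 was 0.217 and 0.219 in control and 0.212 and 0.215 in Brg1-cKO. Col1a2, the partner chain of Col1a1, stood the other way, at 591 and 585 CPM in control and 748 and 710 CPM in Brg1-cKO, and the ratio of Mmp2 to it was 0.345 and 0.351 in control and 0.129 in both Brg1-cKO libraries. Over 14 stroma genes with counts in every library, the mean ratio of Mmp2 to the gene was lower in Brg1-cKO for 8 and higher for 6. These counts include small differences, and for Tbx18, Pdgfra, Pdgfrb, Col1a1 and Lum the groups overlapped. The mean ratio in Brg1-cKO over that in control ran from 0.371 (Col1a2) to 6.79 (Dcn). The Dcn value rests largely on Brg1-cKO replicate 1, where Dcn had 13 counts and the ratio was 106. In replicate 2 the ratio to Dcn was 14. Mmp2 thus did not keep 1 ratio to the list as a whole. Mmp14 had a ratio to Col1a1 of 0.336 and 0.350 in control and 0.366 and 0.5001 in Brg1-cKO.

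Several scarce proteases, picked after their values were seen, were high in a single Brg1-cKO library. Mmp19 was at 13.4 CPM in replicate 1 and 0 in replicate 2, against 1.26 and 0.856 CPM in control, and Adamts2 was at 51.2 and 1.40 CPM, against 10.2 and 9.23 CPM in control. Mmp20 was at 9.53 CPM in replicate 2 and 0 in replicate 1, against 0.140 and 0 CPM in control.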
